A study of Drosophila melanogaster with 3 samples.

Results

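Of 13583 Pdp1 binding peaks in Drosophila melanogaster embryos, 232 (1.71%) lay at starts of long noncoding RNA genes and away from protein-coding promoters. A peak was taken when its summit was within 500 bp of a transcription start of a gene of biotype ncRNA and more than 1 kb from every start of a protein-coding gene. The nearest noncoding gene was an lncRNA in 206 peaks and an antisense RNA in 23. In the other 3 it was of another kind, among them RNaseMRP:RNA. Entries for miRNA hairpins and mature arms carry the same biotype but do not mark transcription starts, and these 741 entries were left out. The peaks touched 218 noncoding genes. Of the 1763 noncoding genes with a start more than 1 kb from protein-coding starts, 211 had such a peak. The remaining peaks of the list were 6432 other distal peaks, also more than 1 kb from protein-coding starts, and 6919 peaks within 1 kb of one.

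PAR bZIP factors, the family to which Pdp1 belongs, dimerize through a leucine zipper and bind near-palindromic words through the adjoining basic region. In the fly clock Pdp1 activates Clk, and the bZIP factor vrille represses Clk through the same kind of site. Long noncoding RNAs are transcripts with no long reading frame. They are made from promoters much like those of mRNAs, and several serve as the primary transcripts from which miRNAs or snoRNAs are cut. A peak at such a start shows where the tagged protein was crosslinked and not whether the RNA was made, which was not measured here.

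The embryos were of the strain Pdp1-GFP, aged 0 to 24 h, whole and of mixed sex. This transgenic line carried Pdp1 with GFP at its C-terminus, and chromatin was precipitated with an antibody to GFP. All cell types of the embryo were pooled, so binding in a few cells and weak binding in many cannot be told apart. The series held 1 group of 3 biological replicates and no second condition. The deposited values were peak lists. Each replicate list held 30000 lines, and the 13583 optimal peaks were those the authors kept by irreproducible discovery rate (IDR), which asks whether peaks rank alike in replicates. Signal is the authors' own value for each peak. Its scale differed between lists, with medians of 86.1, 37.8 and 26.8 in replicates 1, 2 and 3, so ranks within a list are compared (rank 1 is the strongest). Read counts and depth are unknown.

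Sequences reaching 50 bases to each side of the summit are shown for 6 of the strongest named peaks, because they show peaks with and without the PAR bZIP word side by side. They are from the Release 6 (dm6) genome of NCBI RefSeq, + strand, 5′ to 3′. Capitals mark each match to TTRYRYAA, in which R is A or G and Y is C or T, read on both strands.
lncRNA:CR44868 (chr2L:15912573-15912673): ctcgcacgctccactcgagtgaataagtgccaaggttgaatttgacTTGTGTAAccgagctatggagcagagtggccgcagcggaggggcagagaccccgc
asRNA:CR46093 (chr3R:24320111-24320211): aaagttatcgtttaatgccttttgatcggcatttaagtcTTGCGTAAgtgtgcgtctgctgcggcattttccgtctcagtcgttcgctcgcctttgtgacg
lncRNA:CR44619 (chrX:12751369-12751469): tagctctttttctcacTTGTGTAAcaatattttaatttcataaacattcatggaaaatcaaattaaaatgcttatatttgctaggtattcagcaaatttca
lncRNA:CR31044 (chr3R:29214395-29214495): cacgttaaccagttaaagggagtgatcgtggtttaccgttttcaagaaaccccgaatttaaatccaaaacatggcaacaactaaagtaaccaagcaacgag
lncRNA:CR45541 (chrX:9583995-9584095): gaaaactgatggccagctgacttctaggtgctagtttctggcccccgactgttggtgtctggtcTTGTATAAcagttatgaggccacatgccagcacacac
lncRNA:CR45938 (chr3L:18753975-18754075): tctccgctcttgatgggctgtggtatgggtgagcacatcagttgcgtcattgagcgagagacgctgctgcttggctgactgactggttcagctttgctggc
Of these 6 windows, those at CR31044 and CR45938 hold no match.

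The strongest peak of all 232 lay at lncRNA:CR44868 (FBgn0266162) on 2L, 65 bp downstream of its start. The summit falls in an intron of beat-Ib, which encodes an immunoglobulin-domain protein of the beaten path family known from axon guidance, on the opposite strand. Its signal was 4946 in the optimal list, rank 22, and 3042, 1028 and 889 in replicates 1, 2 and 3, where it ranked 16, 61 and 19. The second, at lncRNA:CR44417 on 2R inside an intron of Mapmodulin, had a signal of 4528 and ranked 31. Its replicate ranks were 17, 157 and 20, so both peaks were near the top of every list. The next was asRNA:CR46093 on 3R, 379 bp upstream of its start and in an intron of BRWD3, a bromodomain and WD-repeat protein. It ranked 120, and 104, 201 and 160 in the replicates.

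**Figure D1:**
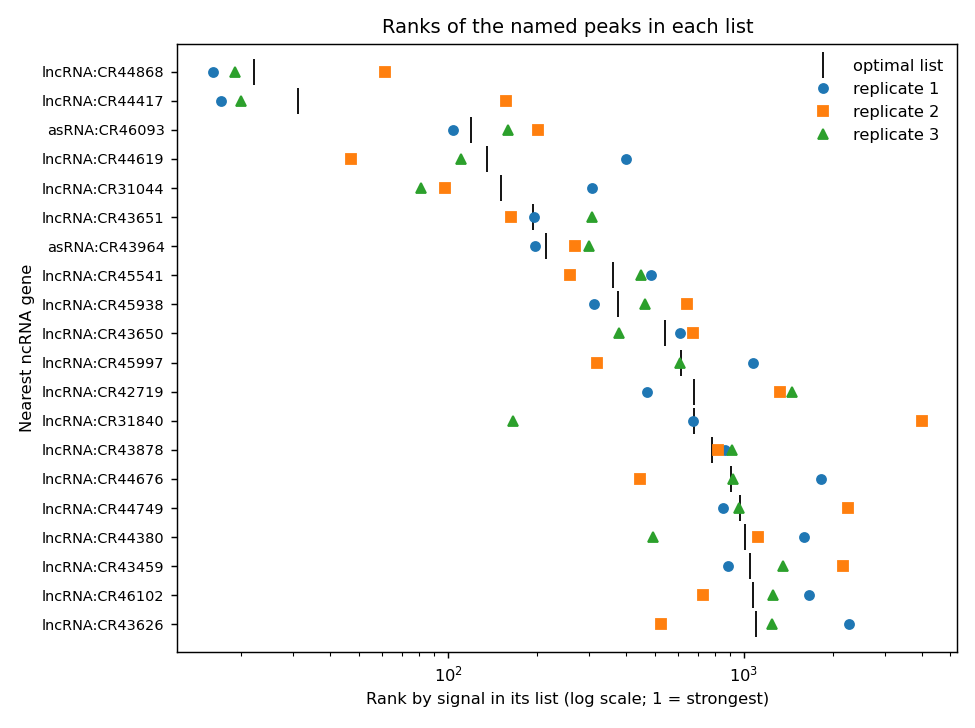
Rank by signal (log scale, 1 is the strongest) of the 20 named peaks, one row per nearest ncRNA gene, in the optimal list (vertical bars) and in replicates 1, 2 and 3 (circles, squares and triangles). CR44868 ranked between 16 and 61 in the replicates, while CR31840 ranged from 166 to 4015.

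The 20 strongest peaks found in all 3 replicates, with peaks within 1 kb counted once, had signals from 1028 to 4946 and ranked 1103 or better. Of these, 8 lay inside protein-coding genes, 8 were upstream of the noncoding start and 10 carried TTRYRYAA. Those inside genes included CR45938 in ftz-f1, a nuclear receptor that partners the Fushi tarazu protein in segmentation, and CR45997 in mbl, the splicing factor muscleblind. CR43878 lay in mub, which encodes a KH-domain RNA-binding protein, and CR44749 in HmgD, a high mobility group chromatin protein. CR46102 lay in LpR2, a lipophorin receptor. Outside genes, the peak at lncRNA:CR45541 on the X was nearest to Hex-A, a hexokinase, whose start was 1630 bp away. Its ranks in replicates 1, 2 and 3 were 487, 258 and 451, close to its optimal rank of 362. Not every named peak was as even. CR31840 on 2L, ranked 680 in the optimal list, had replicate ranks of 677, 4015 and 166. CR44676 reached 445 in replicate 2 and only 1821 in replicate 1. The plot of ranks for the named peaks shows this spread. The remaining named peaks were at CR44619, CR31044, CR43651, asRNA:CR43964, CR43650, CR42719, CR44380, CR43459 and CR43626.

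Peaks at noncoding starts had a higher median signal than other distal peaks in the optimal list and in every replicate. Against peaks at protein-coding starts the order differed between replicates. Their median signal was 359.7, with a range of 159.6 to 4946. The median percentile of signal was 54.6 for them, 45.0 for other distal peaks and 55.1 for peaks at protein-coding starts. Each replicate also has peaks of its own that meet the rule. Among its 13583 strongest lines, replicate 1 held 236 such peaks, replicate 2 held 220 and replicate 3 held 233. Their median percentiles were 58.8, 46.5 and 51.5 (52.3 ± 6.15, SD, n = 3). In each replicate this was above the other distal peaks, by 11.0, 6.50 and 9.97 percentile points (9.14 ± 2.34, SD, n = 3; exact two-sided sign-flip permutation test p = 0.25, the smallest 3 replicates allow). Peaks at protein-coding starts had median percentiles of 52.4, 58.9 and 56.5 in replicates 1, 2 and 3. The difference from them was 6.40, -12.4 and -4.97 points (-3.65 ± 9.46, SD, n = 3; exact two-sided sign-flip permutation test p = 0.75), above them in replicate 1 and below in the others. Peaks at noncoding starts reached the highest decile of the list in 24 cases (10.3%), against 5.57% of other distal peaks and 14.1% of those at protein-coding starts.

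A peak was counted as found in a replicate when a summit lay within 200 bp of it among that replicate's 13583 strongest lines. By this count 144 of the 232 (62.1%, Wilson 95% interval 55.7 to 68.1) were found in all 3 replicates, where all optimal peaks gave 60.6%. The share was 52.6% for other distal peaks, a difference of 9.44 percentage points (Newcombe 95% interval 2.93 to 15.6). Against the 67.9% of peaks at protein-coding starts the difference was -5.82 points, and its interval of -12.3 to 0.284 includes 0. These intervals cover the counting of peaks only, and neighbouring summits that share an interval are not independent. The optimal list was made from the replicates, so finding its peaks in them is not an independent check. Replicate 1 held 90.1% of the 232, replicate 2 held 75.0% and replicate 3 held 78.4%, and 1 peak was found in none. All optimal peaks gave 89.3%, 76.3% and 79.2%, near these shares, and 49 of 13583 were found in none. In the whole lists of 30000 lines the shares of the 232 were 97.0%, 95.3% and 95.7%. The share found in all 3 followed signal. It was 14.5% below percentile 25 of the optimal list, 51.0% up to percentile 50, 78.6% up to percentile 75 and 98.2% above it. Other distal peaks gave 11.9%, 50.0%, 71.2% and 92.1% in the same ranges. Across the members, the signals of replicates 2 and 3 ranked most alike (Spearman's rho 0.794 over 216 peaks), those of replicates 1 and 2 least (0.551 over 214), and those of replicates 1 and 3 between them (0.667 over 215). These are descriptions over peaks of pooled tissue, not over samples.

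Summits were denser near noncoding starts than farther from them. Of the sequence more than 1 kb from protein-coding starts, 1.74 Mb lay within 500 bp of a noncoding start and held the 232 summits, or 133 per Mb. The 3.10 Mb at distances of 1000 to 2000 bp held 305 summits, or 98.4 per Mb, so the ratio was 1.35. In replicates 1, 2 and 3 the density was 135, 126 and 134 per Mb near starts and 98.8, 94.6 and 85.5 in the reference distance. The ratios were 1.37, 1.33 and 1.56 (1.42 ± 0.123, SD, n = 3), a log2 ratio of 0.50 ± 0.12 (SD, n = 3; exact two-sided sign-flip permutation test p = 0.25, the smallest possible). All 3 replicates were higher near starts, with no overlap between the near and reference densities. The mean log2 ratio was 0.76 with a window of 250 bp, 0.32 with 1000 bp and 0.78 against a reference of 2000 to 5000 bp. In 100-bp steps outward from the start the optimal density was 163, 169.6, 118, 96.5 and 114 per Mb. It was 80.9 per Mb from 2000 to 5000 bp and 54.8 beyond 10000 bp, so the density also declined slowly with distance outside the window.

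**Figure D2:**
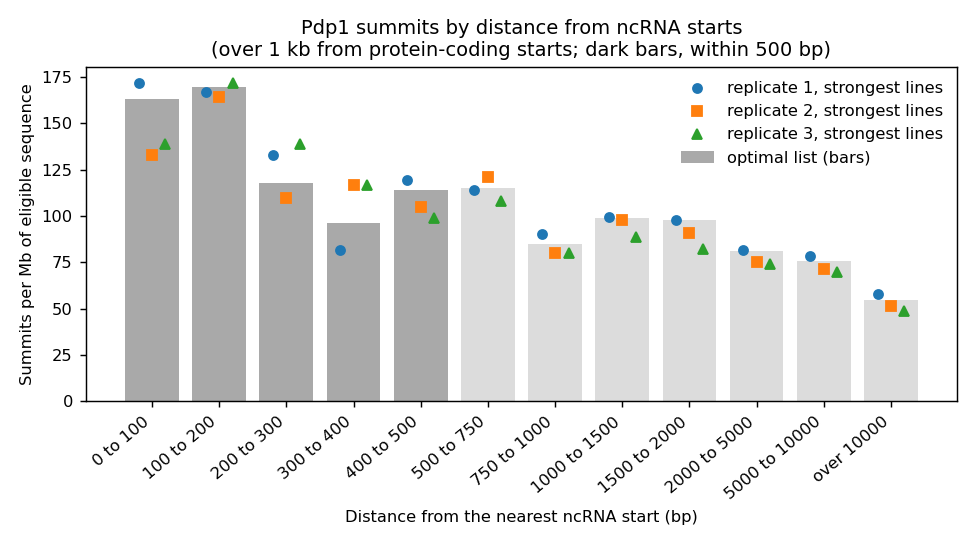
Pdp1 summits per Mb of sequence more than 1 kb from protein-coding starts, by distance in bp from the nearest ncRNA start. Bars are the optimal list (dark within 500 bp) and points the 13583 strongest lines of replicates 1, 2 and 3; the bars stand at 163 per Mb within 100 bp and at 54.8 beyond 10000 bp.

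The summits sat on both sides of the nearest noncoding start, which in genes with more than 1 start can be internal. There were 129 upstream (55.6%, Wilson 95% interval 49.2 to 61.9) and 103 at it or downstream. The rule's counterpart at mRNA genes, the 5436 optimal peaks within 500 bp of a protein-coding start, had 60.9% upstream, a difference of -5.32 points (Newcombe 95% interval -11.9 to 1.06). In the replicates' own lists 55.1%, 57.3% and 55.8% of the peaks that met the rule were upstream (56.1% ± 1.12, SD, n = 3). Summits lay farther from the annotated start than at protein-coding genes. The median distance was 192 bp against 108 bp. Within 250 bp lay 62.5% against 77.7%, a difference of -15.2 points (Newcombe 95% interval -21.6 to -9.08). A match to the initiator, a core promoter element, lay within 5 bases of 5.36% of noncoding starts with a member. The share was 9.75% for protein-coding starts with a peak within 500 bp. Noncoding starts without a member gave 4.88%, near the share with one, and protein-coding starts without a peak gave 12.4%. How exactly the noncoding starts are annotated was not tested, so these distances and sides hold for the gene models only.

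The PAR bZIP word was read within 50 bp of each summit. TTRYRYAA was present at 88 of the 232 (37.9%, Wilson 95% interval 31.9 to 44.3), where all optimal peaks gave 35.8%. In windows of the same width 300 bp away it was present at 5.17%. The median distance from summit to word centre was 13.5 bp, and in 69 of the 88 peaks (78.4%) it was 20 bp or less. The share was 26.1% at protein-coding starts and 46.1% at other distal peaks. Peaks at noncoding starts thus lay between them, with a difference of 11.8 points from the former (Newcombe 95% interval 5.75 to 18.3) and -8.21 points from the latter (interval -14.3 to -1.71). The narrower TTAYGTAA, each match of which is also a TTRYRYAA, was present at 27 (11.6%, interval 8.12 to 16.4) against 15.9% of other distal peaks, 8.34% of those at protein-coding starts and 1.72% in the windows 300 bp away. Over the whole optimal list it was at 1627 of 13583, about the same share as among the members. Counting a word and its reverse complement as 1, the commonest were TTACATAA at 22 peaks (9.48%), TTATATAA at 21 (9.05%) and TTATGCAA at 17 (7.33%). All optimal peaks gave 9.53%, 8.58% and 6.40%, so these shares were near the background. The palindrome TTACGTAA was at 5 peaks, TTACGCAA at 8 and TTGCGCAA at 4, against 2.46%, 2.50% and 1.08% of all optimal peaks. TATCGATA, the core of the DREF element found at many housekeeping promoters, was at 2 peaks (0.862%), against 3.54% at protein-coding starts, 0.202% of other distal peaks and 1.91% of all optimal peaks. The difference from other distal peaks was 0.660 points (Newcombe 95% interval 0.0184 to 2.89) and rests on those 2 peaks. GAGAGAG, the element of GAGA factor, was at 7 members (3.02%) and in as many windows 300 bp away, against 2.39% of all optimal peaks.

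**Figure D3:**
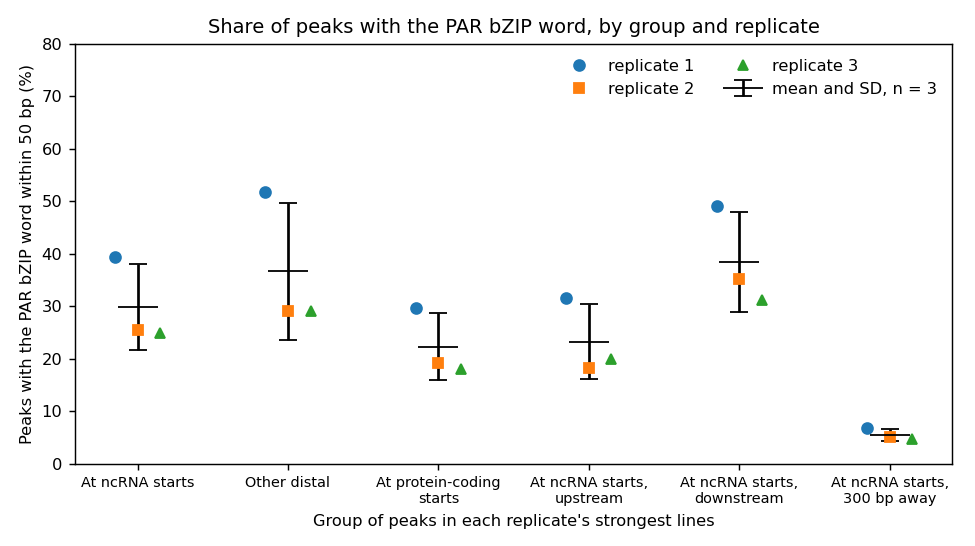
Percentage of peaks with the PAR bZIP word TTRYRYAA within 50 bp of the summit among the 13583 strongest lines of replicates 1, 2 and 3 (points), with mean and SD (n = 3), by group of peaks. In every replicate the share at ncRNA starts lay between those at other distal peaks and at protein-coding starts, and the downstream share lay above the upstream one.

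With the word read within 50 bp, the same order held in each replicate's own list. Peaks that met the rule carried TTRYRYAA in 39.4%, 25.5% and 24.9% of cases in replicates 1, 2 and 3. Other distal peaks carried it in 51.8%, 29.1% and 29.1%, and peaks at protein-coding starts in 29.7%, 19.1% and 18.1%. The difference from other distal peaks was -12.4, -3.68 and -4.22 points (-6.76 ± 4.87, SD, n = 3; exact two-sided sign-flip permutation test p = 0.25, the smallest possible). Without replicate 1 the mean was -3.95 points. With the word read within 25 bp the difference was -6.53, -0.165 and 0.312 points (-2.13 ± 3.82, SD, n = 3; exact two-sided sign-flip permutation test p = 0.75), so replicate 3 changed sign and the order did not hold in all 3. Replicate 1 stood apart, with more of the word in every group of peaks. Its mark was also on the members. The 35 peaks found in replicate 1 alone carried the word in 26 cases (74.3%), and the 16 found in replicates 2 and 3 but not in 1 carried it in 1 (6.25%). For other distal peaks found in replicate 1 alone the share was 83.4%. Those found in replicates 2 and 3 but not in 1 carried it in 42 of 332 cases (12.7%).

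Side and place went with the word. Of the 103 summits at or downstream of the start, 49 carried TTRYRYAA (47.6%), against 39 of the 129 upstream ones (30.2%), a difference of 17.3 points (Newcombe 95% interval 4.75 to 29.3). In replicates 1, 2 and 3 the word was at 52 of 106, 33 of 94 and 32 of 103 downstream summits and at 41 of 130, 23 of 126 and 26 of 130 upstream ones. The difference was 17.5, 16.9 and 11.1 points (15.1 ± 3.55, SD, n = 3; exact two-sided sign-flip permutation test p = 0.25, the smallest possible), positive in all 3. This split was chosen after the values were seen. Of the 232 summits, 149 lay outside protein-coding genes, 74 in an intron, 7 in a 3' UTR and 2 in a coding exon. Inside genes thus lay 35.8% of them, against 76.6% of other distal peaks. The rule ties the members to noncoding starts, so this share depends on where those starts are annotated. Inside genes the word was at 41 of 83 (49.4%) and at 47.2% of other distal peaks, a difference of 2.15 points (Newcombe 95% interval -8.43 to 12.8). Outside genes it was at 47 of 149 (31.5%) against 42.5%, a difference of -11.0 points (interval -18.3 to -2.75). The gap between these differences was 12.9, 0.314 and 8.22 points in replicates 1, 2 and 3 (7.16 ± 6.38, SD, n = 3; exact two-sided sign-flip permutation test p = 0.25), so in replicate 2 it was near 0. The word was also commoner at stronger members, at 27.3%, 37.3%, 35.7% and 51.8% in the percentile ranges 0 to 25, 25 to 50, 50 to 75 and 75 to 100 of signal in the optimal list. For other distal peaks the shares were 34.5%, 44.3%, 51.6% and 58.8%, higher in each range.

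The noncoding starts nearest to the peaks lay mostly outside protein-coding genes. How all noncoding starts are placed was not counted, so this cannot be read as a trait of the peaks. For 150 peaks the start lay outside every protein-coding gene, for 64 inside one on the opposite strand, for 17 inside one on the same strand and for 1 inside genes of both strands. The median distance from summit to the nearest protein-coding start was 3694 bp, close to the 3771 bp of other distal peaks. Several hosts are known regulators, named here after their values were seen. The transcription factor gene vri (vrille), whose product represses Clk where Pdp1 activates it, holds 2 of the peaks in an intron. Both lie at lncRNA:CR45730 on the opposite strand and share the same peak interval. Both windows carry the word TTACATAA, and they are shown for that reason.
lncRNA:CR45730, stronger peak in vri (chr2L:5297774-5297874): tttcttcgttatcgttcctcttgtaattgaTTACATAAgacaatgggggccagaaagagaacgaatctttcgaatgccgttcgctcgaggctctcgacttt
lncRNA:CR45730, weaker peak in vri (chr2L:5298082-5298182): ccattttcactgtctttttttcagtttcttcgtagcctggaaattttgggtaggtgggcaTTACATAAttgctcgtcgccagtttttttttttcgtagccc
The stronger ranked 2674 with a signal of 636, and 1458, 6366 and 5427 in replicates 1, 2 and 3. The weaker ranked 6947 with a signal of 324, was found in 2 replicates, and ranked 5295, 13659 and 11205. Each was thus strongest in replicate 1. The gene kis, for the chromatin remodeller Kismet, holds 2 peaks, at CR44222 (signal 879, rank 1484) and CR44218 (signal 724, rank 2137), and neither carries the word. A pair of summits at CR46112 lie in sima, the fly hypoxia-inducible factor alpha, with signals of 491 and 431. They share the same peak interval, and both were found in all 3 replicates. Single peaks lay in introns of Egfr (signal 525), ptc, the Hedgehog receptor (232), and the Hox gene Abd-B (213). The last pair was found in 1 replicate each.

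Noncoding genes that hold a miRNA hairpin on their own strand often had a peak at a start. Such genes can give the primary transcripts of miRNAs, but whether each of these does was not measured here. Of 33 such genes with a start more than 1 kb from protein-coding starts, 16 had a peak (48.5%, Wilson 95% interval 32.5 to 64.8), against 195 of 1730 other noncoding genes (11.3%, interval 9.87 to 12.8). The difference was 37.2 points (Newcombe 95% interval 21.2 to 53.6). In replicates 1, 2 and 3 the counts were 15, 14 and 13 of 33, and the differences from other genes 34.5, 31.6 and 28.6 points (31.6 ± 2.91, SD, n = 3; exact two-sided sign-flip permutation test p = 0.25, the smallest possible). This group was chosen after its values were seen. The host genes are longer, with a median of 7584 bp against 701 bp, and have 1.70 start positions against 1.05. Per start position the share was 20 of 55 (36.4%, Wilson 95% interval 24.9 to 49.6) against 205 of 1809 (11.3%). Among genes with 1 start position it was 10 of 20 (50.0%, interval 29.9 to 70.1) against 179 of 1655 (10.8%). The part of gene length in this difference was not tested.

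**Figure D4:**
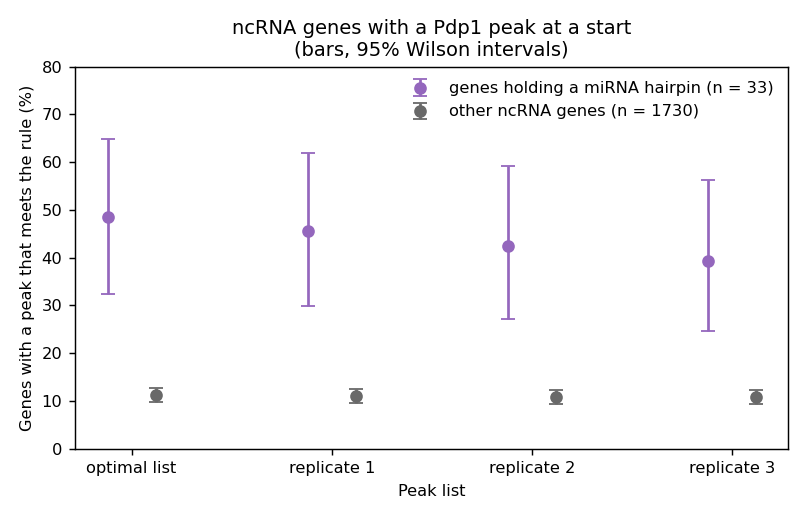
Percentage of ncRNA genes with a Pdp1 peak that meets the rule, for 33 genes holding a miRNA hairpin and 1730 other genes, in the optimal list and in replicates 1, 2 and 3, with Wilson 95% intervals as bars. The host genes lay at 39.4% to 48.5% and the other genes at 10.8% to 11.3%.

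At these hosts 20 peaks lay near a start, of which 18 were upstream of the nearest one. Several of those nearest starts are internal, so the summit lies inside the host gene. Examples are CR46006, CR44206, both summits at CR43626 and the stronger one at CR43650. Of the 20, 18 were outside protein-coding genes, 16 were found in all 3 replicates and 3 carried TTRYRYAA (15.0%). The strongest was at lncRNA:CR31044 on 3R, which holds mir-279 and mir-996, a pair known from sensory organ formation. Its summit was 117 bp upstream, with a signal of 2554 and rank 151. Its signals in replicates 1, 2 and 3 were 1141, 871 and 549 and its ranks 307, 98 and 81. The window, shown above, has no match to the word. CR43651, which holds mir-14, a regulator of cell death and fat metabolism, had a summit 398 bp downstream that ranked 195, 163 and 307 in the replicates. A weaker one lay 359 bp upstream, with a signal of 176, and was found in 2 replicates. CR43650 holds mir-8, the fly member of the miR-200 family, and had summits with signals of 1516 and 485. The stronger ranked 611, 673 and 379 in the replicates. At CR43459, the transcript of mir-277 and mir-34, the summit was 143 bp upstream, in the window below, which is shown because mir-34 is among the best studied of these miRNAs and because it has no match.
lncRNA:CR43459 (chr3R:10093568-10093668): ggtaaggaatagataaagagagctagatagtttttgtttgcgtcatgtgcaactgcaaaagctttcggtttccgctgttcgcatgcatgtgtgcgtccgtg
It ranked 889, 2169 and 1356 in the replicates, with signals of 708, 195 and 156. CR43334 holds mir-ban (bantam), which promotes growth and blocks cell death, and was nearest to 3 peaks, with signals of 577, 368 and 298. All were found in all 3 replicates. The first and last share an interval and matched the same line in replicates 1 and 2, so they are not separate observations. CR43626 with mir-282 had a summit of signal 1028 that ranked 2281, 527 and 1244. A weaker one there, of signal 191, matched the same lines in all 3 replicates. It is thus not a separate observation, though both count among the 20. Lower peaks lay at the hosts of mir-10 (CR42651, signal 428), mir-276a (CR46006, 422), mir-9a (CR45916, 356), mir-184 (CR44206, 252), mir-92b (CR45917, 248) and mir-bft (CR43314, 233). Those of mir-9a, mir-31b (CR43836, 196) and mir-252 (asRNA:CR46354, 199) were not found in every replicate. The last lies near starts of 2 host genes, asRNA:CR46354 and asRNA:CR17025, and Hsromega, described below, holds mir-4951. Of the hosts with lower peaks, CR45917 alone carried the word.

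Of a list of 31 studied noncoding RNAs, 26 were matched by symbol and 6 had a peak by the rule. The windows at the roX genes on the X are shown, since these are the best known of the list, and neither holds a match to the word.
lncRNA:roX1 (chrX:3862544-3862644): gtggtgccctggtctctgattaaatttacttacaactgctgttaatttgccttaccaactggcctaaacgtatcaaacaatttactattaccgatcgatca
lncRNA:roX2 (chrX:11579038-11579138): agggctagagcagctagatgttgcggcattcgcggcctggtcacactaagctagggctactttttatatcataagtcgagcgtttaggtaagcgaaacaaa
lncRNA:Hsromega, the heat shock RNA that organizes omega speckles in the nucleus, had a summit with a signal of 459. The summit lay 222 bp upstream of the nearest start, which is internal, and thus inside the gene. Its ranks of 10409, 1308 and 5252 in replicates 1, 2 and 3 were far apart. At lncRNA:flam, the flamenco piRNA cluster that silences transposons in ovarian follicle cells, the summit was 174 bp upstream with a signal of 393. Its replicate ranks were 7205, 3283 and 7464. The roX RNAs guide the dosage compensation complex to the male X. lncRNA:roX2 had a summit 23 bp downstream of its start, with a signal of 381 and ranks of 7342, 6823 and 2707. lncRNA:roX1 had one 103 bp downstream, with a signal of 239 and ranks of 12760, 6669 and 7589. All 4 of these peaks were found in all 3 replicates. The peak at RNaseMRP:RNA, part of the ribonuclease that processes ribosomal RNA, had a signal of 184 and was found in replicate 1 alone. Of the 20 matched genes without a peak by the rule, 4 had an optimal summit within 500 bp of a start that was also within 1 kb of a protein-coding start, among them Uhg2 and Uhg4. The other 16 had no optimal summit that near, among them the bithorax complex RNAs bxd, iab4 and iab8 and the miRNA host let7C.

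Only 2 noncoding genes were nearest to 3 or more peaks. One was CR43334, above. The other was lncRNA:CR44810 on 2R with 4, whose nearest protein-coding gene is slbo, the fly C/EBP, another bZIP factor. Its summits had signals of 738, 526, 388 and 252 and lay 4550 to 9187 bp from the slbo start. The upper pair was found in all 3 replicates and the lower pair in 1 each, and the 3 weaker summits each carried the word. No member lay in or within 50 kb of Pdp1 itself. By arm the members numbered 50 on 2L, 46 on 2R, 50 on 3L, 57 on 3R, 1 on 4 and 28 on X. In that order the shares of the members were 21.6%, 19.8%, 21.6%, 24.6%, 0.431% and 12.1%. Other distal peaks gave 18.1%, 16.5%, 22.7%, 22.9%, 0.684% and 19.1%. On the X, 24 of 28 were found in all 3 replicates (85.7%, Wilson 95% interval 68.5 to 94.3), against 52.8% of other distal peaks there. All optimal peaks, over all arms, gave 60.6%. This arm was singled out after the values were seen. Both summits at CR44661 on the X matched the same replicate lines, so the 28 are not all separate observations. The members on the large autosome arms gave 56.0% to 65.2%.

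The noncoding starts with a member were compared with those without in sequence, from 250 bases before to 50 after the start. TTRYRYAA was in 53 of 224 (23.7%, Wilson 95% interval 18.6 to 29.6) and in 15.2% of 1638 without a member. TTAYGTAA was in 6.70% and 2.93%. GAGAGAG was in 8.93% (interval 5.85 to 13.4) and 4.09% (3.23 to 5.16). Protein-coding starts with a peak within 500 bp gave 8.86% for GAGAGAG, near the share at noncoding starts with a member, and those without gave 6.94%. At protein-coding starts TTRYRYAA was in 17.3% of those with a peak within 500 bp and 11.9% of those without. TATCGATA was in 0.893% of noncoding starts with a member and 0.977% of those without, but in 13.1% of protein-coding starts with a peak. These are matches of letters, not sites. At the edges of the rule, the members farthest from a noncoding start were CR43481 and CR43837 at 490 bp, CR32636 at 498 and CR45708 at 499, with signals of 198, 379, 375 and 225. The nearest peaks outside it, at 502, 505 and 509 bp, had signals of 919, 598 and 562.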

How the data were processed

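ChIP-seq with an anti-GFP antibody gave 1 peak list for each of 3 biological replicates of 1 group of Pdp1-GFP embryos, sonicated to 200 to 800 bp per the labels. With 1 group, no comparison of conditions and no batch test could be made. Nothing in the labels says how the replicate samples were grown, so the spread between them may be partly technical. The lists used were the dm6 optimal list and the 3 dm6 replicate lists. The authors deposited a signal value with each peak, which served here for ranking inside 1 list. They also deposited −log10 q values, of which 13361 in the optimal list were at a cap of 4.43; these were not tested. Not given in the sources used here are the aligner, the peak caller and the version of IDR. Control libraries, pooled and dm3 lists were not used here.

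Summits were set against transcript starts of Ensembl release 115 (BDGP 6.54) and the Release 6 genome on the main chromosome arms, with 1-based coordinates, in Python 3.11.15 with numpy 2.4.6, scipy 1.17.1 and matplotlib 3.10.9. Both strands were searched for words up to 50 bp from each summit, and again 300 bp away on alternating sides. Of 14 words searched, those of Pdp1-like type, TATCGATA and GAGAGAG are reported. Replicates were compared over their 13583 strongest lines, with a match of 200 bp. Shares have Wilson and differences Newcombe 95% intervals, which cover counting only. Means over replicates were tested by exact sign flips. The functions recovered all 11 quantities planted in simulated lists. No depth was given, so no precision from depth can be stated.

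The named peaks were the 20 strongest found in all 3 replicates, genes of the studied list with a member, noncoding genes with 3 or more members and members near Pdp1. The values of 1 studied gene with a member are not reported here. Members and lists were chosen with earlier results of these data known. Of the studied list, msa, Uhg6, IBIN, bft and 7SK were not matched by symbol. Alternatives changed 1 choice at a time: both windows, the set of starts, the strength of the list, matching and word windows, the reference distance and leaving out replicates.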

Additional observations from a re-analysis of the deposited data

How the results depend on the processing

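No paired analysis was possible because the series holds 1 group. Of 110 alternative values for 9 results, 13 moved: counts by over 1.5 times, shares out of their Wilson interval, or the median percentile by over 1 SD. The other 97 did not, where the word difference and the density ratio were judged by the sign of their mean alone. The number of peaks was 145 with a 250 bp window at noncoding starts, 394 with 1000 bp, 126 in the stronger part of the list and 144 when only peaks found in all 3 replicates were kept, against 232. The number of genes was 140, 345 and 118 under the first 3 of these, against 218. The share found in all 3 replicates was 31.5% with fewer lines per replicate, 90.1% with whole lists and 55.6% in the stronger part of the list. Found in both remaining replicates, when 1 was left out, were 66.4% to 70.7%, without replicate 3 and 2, respectively. The median percentile was 46.0 within the stronger part of the list. The settings admit other numbers of peaks and lines, which sets the counts. The cause of the changed shares and of the median was not tested. The mean difference in TTRYRYAA from other distal peaks ranged from -8.72 to -2.13 points. The last is with the word within 25 bp, where replicate 3 turned to 0.312; it was -4.08 with whole lists and -3.95 to -8.30 when 1 replicate was left out, against -6.76. The log2 density ratio, 0.50 ± 0.12, was 0.76 with the 250 bp window, 0.32 with 1000 bp, 0.35 with whole lists and 0.78 against 2000 to 5000 bp, with every replicate above 0. Of the 20 named peaks 11 remained members with the 250 bp window. Adding miRNA entries as starts, chosen after seeing the data, gave 250 peaks. Without read counts, depth sets no stated limit here.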
